A study of Saccharomyces cerevisiae with 161 samples.

Results

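Of the 5508 genes listed for wild-type meiotic cells, 205 (3.72%) had a transcript level below 10 TPM. These genes were chosen by their TPM, a measure of transcript number that corrects reads for gene length and is scaled to a fixed sum over all genes. The values come from 1 RNA-seq library of wild-type cells (H119) of the SK1 background. According to the label, the cells were harvested 3 h after transfer to sporulation medium. The study's text gives an earlier time for its RNA-seq data, which it credits to an earlier publication. Whether those data are from this library is not stated. SK1 is a budding yeast background whose cultures enter meiosis synchronously, and meiotic prophase is the stage at which chromosomes form axes and recombine. Messenger RNA was selected by its poly(A) tail and sequenced from a stranded library. With 1 library there is no replicate error, and TPM keeps no read depth, so the number of reads behind a low value is unknown and no p-value is given. The labels list no other RNA-seq sample, and the ChIP-seq libraries of the study were not used here.

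Transcript levels in yeast vary along chromosomes as well as between genes. The outermost parts of the chromosomes, the subtelomeres, are known for families of related genes, few essential genes and silencing by the Sir proteins that can spread inward from telomeres. Many genes elsewhere are also kept off until a nutrient, a stress or a stage of the life cycle calls for them. Position in the genome was not used to choose the low genes and is therefore what is described here.

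The 205 low genes had between 0.23 and 9.99 TPM, with a median of 6.08 TPM and quartiles of 3.72 and 8.29 TPM. The other 5303 genes had a median of 75.6 TPM. Together, the low genes held 0.120% of all TPM. Of the low genes, 7 were below 1 TPM, 19 below 2 TPM and 59 between 8 and 10 TPM. The limit cut through a continuous slope of the distribution: the band from 10 to 12 TPM held another 73 genes and the band from 12 to 14 TPM 91 genes. The genes on either side of the limit were SK1_04G00750 with 9.99 TPM and SK1_12G04600 with 10.03 TPM. No listed gene was at 0, and the low genes are the lowest of the listed ones.

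**Figure D1:**
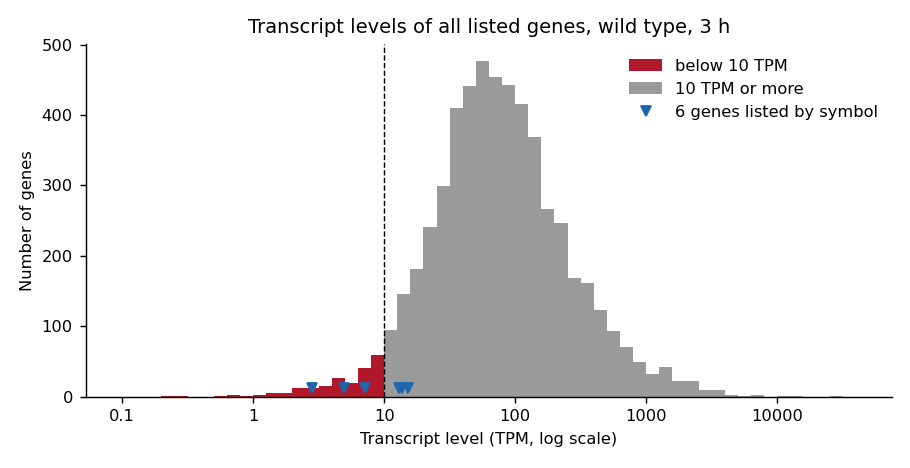
Number of genes by transcript level (TPM, log scale) in the wild-type library, with genes below 10 TPM in red, genes at 10 TPM or more in grey and the 6 genes listed by symbol as triangles. The 205 low genes form the lower tail of a single distribution with no gap at the limit (dashed line).

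Among the low genes were 3 of the 6 genes that the table lists by a symbol. All 6 match mitochondrial genes of the reference annotation, and each encodes a subunit of the respiratory chain or of the ATP synthase. COB, which encodes cytochrome b, had 2.80 TPM. ATP6, which encodes a subunit of the membrane part of the ATP synthase, had 4.92 TPM. COX1, which encodes the largest of the mitochondrially made subunits of cytochrome c oxidase, had 7.19 TPM. The other three lay just above the limit. They were COX3 with 13.0 TPM and COX2 with 13.7 TPM, both subunits of cytochrome c oxidase, and OLI1, the ring subunit of the ATP synthase, with 15.2 TPM. The 6 mitochondrial genes thus spanned 2.80 to 15.2 TPM and all lay below the lower quartile of all genes, 35.9 TPM. As background, mitochondrial messages of budding yeast lack the long poly(A) tails of nuclear ones, and COB and COX1 can carry introns. The part that poly(A) selection or the gene length used for TPM had in these values was not tested.

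The remaining 202 low genes carry SK1 identifiers that the files do not pair with gene names. None of these identifiers matched the table of reference names, so no function is given for them. The identifier holds the chromosome and a number that follows the gene order along it, which places each gene among its neighbours without coordinates. There were 5502 such genes, of which the 202 low genes made up 3.67%. The 2 lowest of all were SK1_12G00030, the third listed gene from the left end of chromosome XII, with 0.23 TPM, and SK1_03G00020, the first listed gene of chromosome III, with 0.27 TPM. Of the 7 genes below 1 TPM, 6 were among the outermost 10 listed genes of a chromosome end, a place held by 5.82% of all numbered genes. The seventh was on chromosome XVI, 108 listed genes from the nearer end.

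The map of gene order shows low genes on every chromosome and a crowding of them at the ends. Of the 202 low genes, 68 (33.7%) lay among the outermost 10 listed genes of a chromosome end, against 5.82% of all numbered genes. Over all permutations of the gene order, 11.7 low genes would fall into these 32 zones of 10 genes on average, so the observed number was 5.79 times that average. The other 134 low genes were spread over 5182 genes, where the same average is 190.3. The median distance from the nearer end was 46.5 listed genes for low genes and 94.0 for the other genes. How reads that match several genes were treated is not given, so the levels of near-identical genes at the ends are uncertain. Their part in the crowding was not tested.

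**Figure D2:**
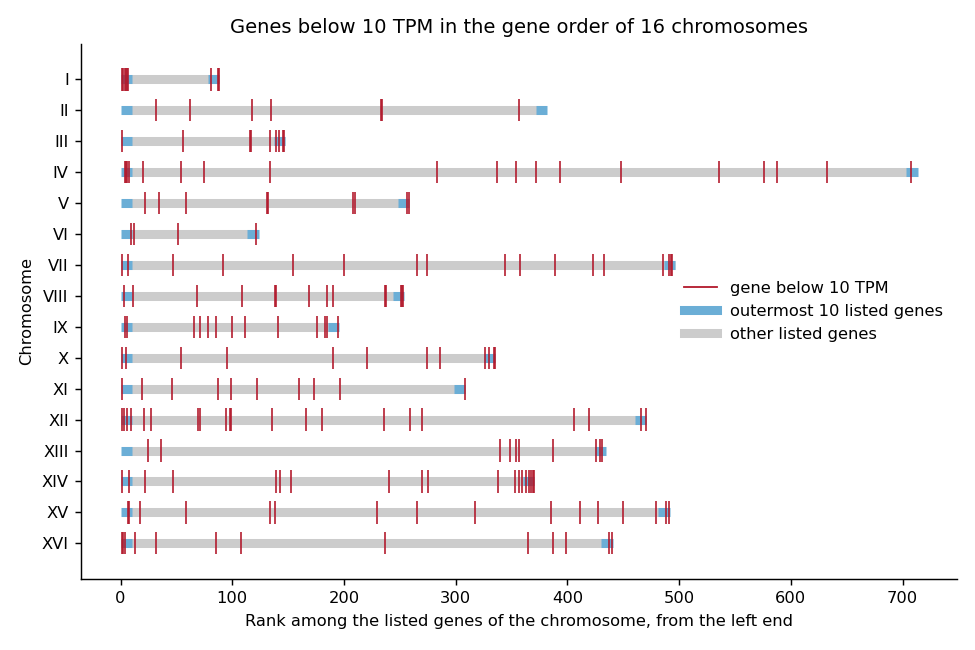
Each row is a chromosome, with listed genes in order from the left end along the horizontal axis; red ticks are genes below 10 TPM and blue bars the outermost 10 listed genes of each end. The blue zones hold 68 of the 202 low genes.

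The share of low genes was highest at the very end and fell with each band of ranks out to rank 30. Of the 32 outermost listed genes, 18 (56.2%) were low, against an average of 1.17 in permuted order. Among the genes ranked 2 to 5 from an end, 28 of 128 (21.9%) were low, and among those ranked 6 to 10, 22 of 160 (13.8%). Ranks 11 to 20 held 17 low genes among 320 (5.31%), against an average of 11.7. From rank 21 inward, 117 of 4862 genes (2.41%) were low, and no band of ranks there exceeded 3.30%. Each rank from 11 to 20 has 32 genes, for which the permuted average is again 1.17. Ranks 11 to 14 held 2 or 3 low genes each, and ranks 15 to 20 held 0 to 2 each. The crowding was thus mainly in the outermost 10 genes and was little seen beyond rank 14, though the counts per rank are small. The outermost 20 genes held 42.1% of the low genes, against 11.6% of all numbered genes, and the outermost 10 alone held 33.7%. The median level of all genes followed the same order, with 8.92 TPM for the outermost genes, 31.4 TPM for ranks 2 to 5, 43.7 TPM for ranks 6 to 10 and 64.5 TPM for ranks 11 to 20, and it was between 70.9 and 86.7 TPM in every band farther in.

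**Figure D3:**
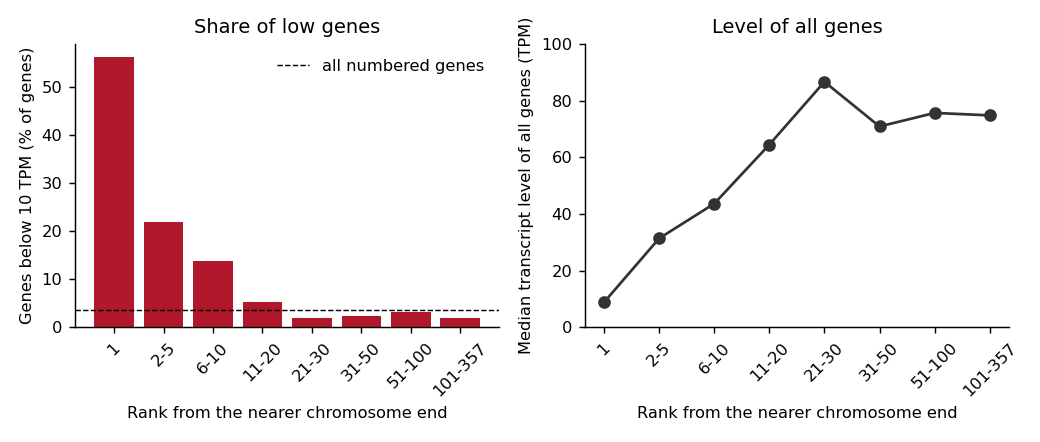
Left, share of genes below 10 TPM by rank from the nearer chromosome end, with the share of all numbered genes as a dashed line; right, median transcript level (TPM) of all genes in the same bands. The share falls from 56.2% at rank 1 to 5.31% at ranks 11 to 20, and the median level climbs over the same bands.

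The low genes of the ends also had lower levels than the low genes farther in. The median was 4.10 TPM in the outermost 10 and 7.31 TPM elsewhere. Of the 82 numbered genes below 5 TPM, 43 (52.4%) lay in the outermost 10, against 25 of 120 (20.8%) between 5 and 10 TPM. Above the limit the share went on falling without a break. It was 9.03% of the 421 genes between 10 and 20 TPM, 6.49% between 20 and 50 TPM and 3.50% of the 2115 genes at 100 TPM or more. Because the limit on TPM chose the genes, these levels are a description.

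Low genes were not a feature of a few ends only. At least 1 low gene was among the outermost 10 at 28 of the 32 ends. Permuted order would put 0.37 low genes into an end on average. That is a number of genes, and the number of ends with at least 1 was not calculated for permuted order. The left end of chromosome I held 6 and the right end of chromosome XIV held 5. A further 4 ends held 4 each, namely the right ends of chromosomes III and X and the left ends of chromosomes IV and XII. These 6 ends held 27 of the 68 low genes. None was found at either end of chromosome II or at the left ends of chromosomes V and XIII. Left ends held 31 low genes among 160 and right ends 37 among 160.

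The outermost listed gene itself ranged from 0.27 to 434 TPM over the 32 ends. The highest was the first gene of chromosome VIII, and the last gene of chromosome III had 162 TPM and the first gene of chromosome IV 148 TPM. A place at the end was therefore not always one of low level, since 14 of the outermost genes were at 10 TPM or more. The table does not reach the same depth into each end. Of the numbers of the gene order up to the last listed one, 43 are not listed, and 39 of these belong to the outermost 10 numbers of an end. The lists of chromosomes II and X start at number 60 and that of chromosome XVI at number 70. At the left end of chromosome II, without a low gene, the first 5 numbers are unlisted. The same numbers are unlisted at the left end of chromosome X, which held 2 low genes. The part that unlisted genes had in these counts was not tested.

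All chromosomes held low genes, from 4 of 123 genes on chromosome VI to 21 of 470 on chromosome XII. Chromosome I had the highest share, 9 of 88 genes (10.2%), against an average of 3.23 genes in permuted order. All 9 lay in the outermost 10 of an end, 6 on the left and 3 on the right, and the 68 genes between had none. Chromosome IX followed with 13 of 195 genes (6.67%), chromosome III with 9 of 147 (6.12%) and chromosome VIII with 14 of 253 (5.53%). The lowest shares were on chromosome II, with 7 of 381 genes (1.84%), and chromosome XIII, with 10 of 434 (2.30%).

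Chromosomes I, III and VI, which had the fewest listed genes and which the study treats apart as the shortest, held 22 low genes (10.9% of the low genes), against 6.51% of all numbered genes. Of these 22, 16 lay in the outermost 10 of an end. Since each chromosome has the same number of ends, such zones made up 16.8% of the genes on these 3 chromosomes and 5.05% on the other 13. Outside the zones, 6 of 298 genes (2.01%) were low on the 3 chromosomes and 128 of 4884 (2.62%) on the other 13, so that the higher share was not seen there. Within the zones, the shares were 26.7% on the 3 chromosomes and 20.0% on the others. The 3 chromosomes were not alike, since 9 of their 16 low genes in the zones were on chromosome I, 5 on III and 2 on VI. Over its whole length, chromosome III held 9 low genes against an average of 5.40 in permuted order. Chromosome VI held 4 against 4.52. Over the 16 chromosomes, the share of low genes fell with the number of listed genes (Spearman's rho −0.574), and outside the zones the coefficient was −0.109. Both are descriptions over chromosomes of 1 library.

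**Figure D4:**
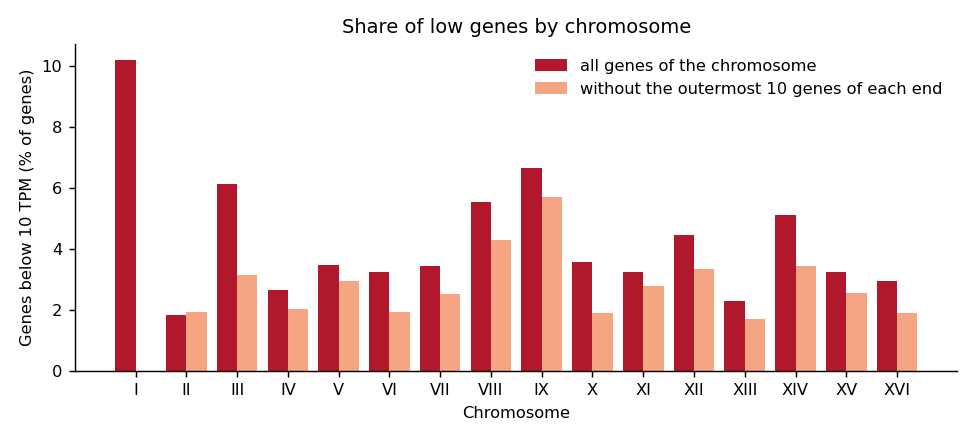
Share of genes below 10 TPM on each chromosome, for all its listed genes (dark) and without the outermost 10 genes of each end (light). On chromosome I the share is 10.2% with the ends and 0 without them, and on chromosome IX it is 6.67% and 5.71%.

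Chromosomes VIII and IX had the highest shares of low genes outside the end zones, where 2.59% of all genes were low. That most of their low genes lay away from the ends was not particular to them, since 134 of all 202 did. On chromosome IX, 3 of the 13 low genes were in the outermost 10 of an end, and 10 of the 175 genes between (5.71%) were low, the highest share outside the zones on any chromosome. On chromosome VIII, 4 of the 14 low genes were in the outermost 10, and 10 of the 233 genes between (4.29%) were low, the second highest such share. A stretch in the middle of chromosome IX held 6 low genes, numbered 660 to 1110, with 2.30 to 9.91 TPM and no 2 of them next to each other. No stretch of 60 listed genes outside the zones held more than 6 low genes on any chromosome, and the average over such stretches is 1.55. Both chromosomes and the stretch were picked out after the shares were seen.

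Low genes lay next to each other more often than in permuted order, and mostly near the ends. There were 22 pairs of neighbouring low genes, where all permutations of the gene order give 7.36 on average and permutations within each chromosome 7.90. Of the low genes, 40 (19.8%) had a low gene directly beside them, against 7.15% on average in permuted order, and 6.71% of all numbered genes lay beside a low gene. The outermost 10 genes of the ends held 16 of the 22 pairs, where an average of 12.9 is reached by permuting the 68 low genes over these zones alone. The other 6 pairs lay outside the zones, against an average of 3.43 there. The order was also permuted only within bands of rank from the end, namely 1, 2 to 5, 6 to 10, 11 to 20, and 21 or more. The last band held 4862 of the 5502 genes. The average over all was then 15.5 pairs, closer to the observed 22.

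Most low genes nevertheless stood alone. Of the 202, 162 had no low neighbour, and the other 40 formed 18 runs, of which 15 were pairs. Of the 18 runs, 12 touched an end zone. The longest run was of 4 genes, numbers 30 to 60 on chromosome I, with 0.70, 3.27, 6.70 and 9.08 TPM. In the same end, numbers 10 and 15 formed a pair with 3.76 and 7.17 TPM. The next runs were of 3 genes. One was numbers 40 to 60 of chromosome IV, with 2.10, 5.43 and 4.81 TPM, 3 genes in from the left end. The other was formed by the last genes of chromosome VIII, numbers 2530 to 2550, with 4.19, 5.30 and 0.51 TPM. In each of the 3 longest runs, the gene nearest the chromosome end had the lowest level. Among the pairs that touched an end zone, the same held for most, but not for those on chromosomes III and XVI. This order was noticed after the values were seen. The 6 pairs away from the ends were on chromosomes II, III, V, VIII and XII, with 2 of them on chromosome VIII. Whether any neighbours are copies of each other or share a function cannot be read from the identifiers.

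The surroundings of a low gene were examined up to 10 genes away. Places at each distance were counted, so a gene near several low genes entered more than once. Directly beside a low gene, 11.4% of the genes were low, against 3.23% beside other genes. At a distance of 5 genes the shares were 6.70% and 3.19%, and at 10 genes 4.17% and 3.11%. Outside the end zones, 4.53% of the genes beside a low gene were low, against 2.51% beside other genes. There the share around low genes moved above and below that around other genes farther out, with 0.77% against 2.58% at 3 genes and 3.88% against 2.49% at 5 genes. These values rest on 1 to 6 pairs at each distance.

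**Figure D5:**
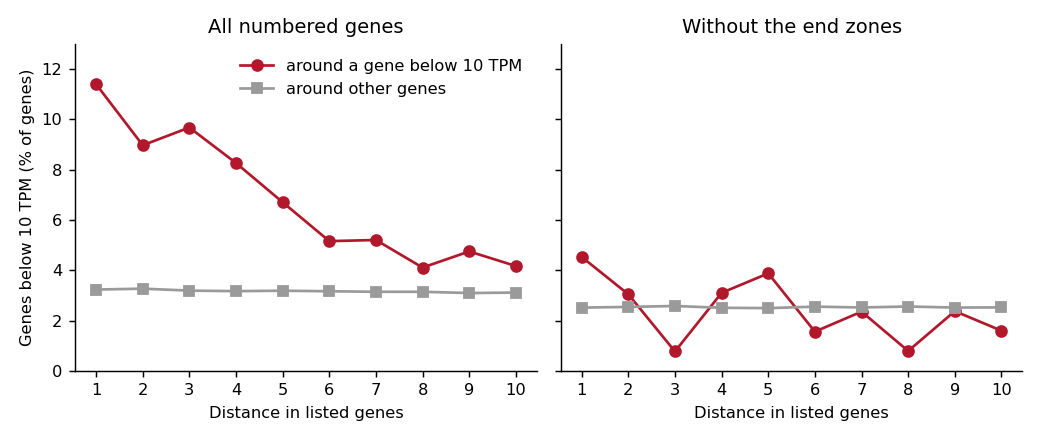
Share of genes below 10 TPM at a distance of 1 to 10 listed genes, around low genes (red circles) and around other genes (grey squares), over all numbered genes (left) and without the outermost 10 genes of each end (right). The share directly beside a low gene is 11.4% over all genes and 4.53% without the ends.

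The levels of the genes beside low genes were examined where these were not low themselves. A gene was again counted once for each low gene at the given distance. Over 342 such neighbours the median was 57.7 TPM, against 75.7 TPM for all other numbered genes. Outside the end zones the median of 253 such neighbours was 77.1 TPM, against 77.0 TPM for all other genes there. At a distance of 2 genes, the medians were 74.0 TPM over all and 87.9 TPM outside the zones. In the interior of the chromosomes, the median level of the adjoining genes was thus close to that of all other genes.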

How the data were processed

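Transcript levels were taken from the deposited table of 1 wild-type RNA-seq library. The authors deposited TPM values, which are corrected for gene length and sum to 1000000 over the listed genes. The submitters' processing notes name TopHat2, featureCounts and edgeR, without a version. The role of each for this table, the gene lengths, the treatment of reads that match several genes and any filter on genes are not given in the sources used here. Near-identical genes, which are common at chromosome ends, are therefore uncertain. Values were used without a filter or pseudocount, and genes with less than 10 TPM were taken as low.

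Numbered genes were ranked by the number in the identifier from each end of their chromosome, and neighbours were consecutive listed genes. The 6 genes listed by symbol have no place in this order. Averages over permuted gene order were computed exactly, without drawing permutations, and no p-value was calculated, since genes of 1 library are not replicates. The formulas for these averages were checked against drawn permutations of the low genes. The counting of pairs, runs and end genes was checked on made-up data with planted runs. The limit, the members and the comparisons were chosen with earlier results of these data known. Genes were named by rule: the 2 lowest, those on either side of the limit, those listed by symbol, and the 3 longest runs by number; other genes singled out by position were chosen after their values were seen. Peak lists were not used, because genes could not be placed on their coordinates. Calculations used Python 3.11.15, NumPy 2.4.6, SciPy 1.17.1 and Matplotlib 3.10.9.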

Additional observations from a re-analysis of the deposited data

How the results depend on the processing

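Of 19 alternatives, 16 were set at the start and 3 were chosen after seeing the data. With a limit of 5 TPM there were 84 low genes. Of the 82 numbered ones, 52.4% lay in the outermost 10 listed genes of an end, against 5.82% of all numbered genes, and 9.76% next to another low gene, against 2.92% on average in permuted order. With 20 TPM there were 629 low genes, and of the 623 numbered ones 17.01% lay in the outermost 10, against the same 5.82%, and 28.3% next to another, against 21.3% on average. With the outermost 5 genes as the end zone, the share was 22.8%, against 2.91% of all numbered genes, and with the outermost 20 it was 42.1%, against 11.6%. Without the outermost 10 genes of each end, 8.96% of the remaining low genes lay next to another, against 5.05% on average, and 4.48% were on chromosomes I, III and VI, against 5.75% of the genes counted, so that the higher share on these chromosomes was lost. The share in the end zones stayed above that of all genes in all 7 of its alternatives, and the share next to another low gene stayed above the average of permuted order in all 6 of its own. The values of 10 alternatives moved out of a set range, which was the exact 95% binomial interval for a share and 1.5 times for a count. The other 9, which include leaving out chromosome I, genes under 1 TPM or the genes listed by symbol, stayed within it. Leaving out these genes keeps most of the low genes, so close values were likely from the start. The interval served only as a range, since genes of 1 library are not replicates. No paired analysis was possible because there is only 1 RNA-seq library. Its depth is unknown, and the counting error of low values could not be examined.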
